A study of Mus musculus with 6 samples.

Results

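The genes described here are the 42 genes of glutathione, thioredoxin and peroxide metabolism and of the NRF2 stress response that were chosen by symbol, of 24411 genes in a count table of mouse cortical neuron cultures. They comprise 18 glutathione genes, 12 thioredoxin and peroxiredoxin genes, 3 genes of superoxide dismutases and catalase, 4 genes of the pentose phosphate pathway and 5 genes of the NRF2-Keap1 axis. All 42 were in the table and all 42 had enough counts to be tested.

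RNA sequencing compared primary cultures exposed to preformed fibrils assembled from mouse α-synuclein (PFF, 3 libraries) with cultures given phosphate-buffered saline (PBS, 3 libraries). Such fibrils are taken up by neurons and template the aggregation of the α-synuclein that the cells make themselves. Both groups came from the cortex of mouse embryos at day 18, and neither genotype nor strain is given in the labels. PBS is the only control treatment that the labels name. Fibrils were put on the cells at 3.45 µM on day 10 in vitro and the RNA was collected 8 days later, on day 18. Nothing in the labels says whether the 3 libraries of a group came from separate cultures, so the p-values reflect only how much these libraries vary, which may be technical.

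Glutathione and thioredoxin are the main thiol systems by which cells reduce peroxides. Glutathione is made from cystine-derived cysteine, glutamate and glycine, is used by peroxidases and transferases, and is returned to its reduced form by glutathione reductase. Thioredoxin passes electrons from thioredoxin reductase to the peroxiredoxins, and both systems draw NADPH from the pentose phosphate pathway. The transcription factor NRF2, encoded by Nfe2l2 and held in check by Keap1, induces many of these genes through antioxidant response elements. In brain the response is known to be stronger in astrocytes than in neurons, and astrocytes supply neurons with precursors of glutathione.

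The library totals ran from 10036469 to 10230592 estimated counts in PFF and from 9224974 to 10742383 in PBS. Marker lists showed a mixed culture. Neuron markers summed to between 5457 and 5999 CPM (counts per 1000000 library counts, TMM-normalised) in PFF and between 5236 and 5543 in PBS, and 2 of 11 rose and none fell. Astrocyte markers summed to between 3606 and 4606 CPM in PFF and between 3725 and 4856 in PBS, and 3 of 10 fell and none rose. Microglia and macrophage markers summed to between 538.8 and 673 CPM in PFF and between 172 and 285 in PBS, and 13 of the 14 tested rose and none fell. All 8 markers of oligodendrocyte progenitors and precursors fell (509 to 547 CPM in PFF and 718 to 880.3 in PBS), and 5 of 7 mature oligodendrocyte markers rose and none fell (648 to 979 CPM in PFF and 400.3 to 499.7 in PBS). No endothelial, pericyte or fibroblast marker of 8 tested passed (34.3 to 61.8 CPM in PFF and 48.7 to 59.9 in PBS). Cldn5 had at most 1 count in any library. In bulk RNA, fewer cells of a type and less RNA per cell cannot be told apart, and the part of these shifts in the redox results was not tested.

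Of the 42 redox genes, 5 fell in PFF and none rose: Srxn1, Prdx6, Gsta4, Gpx7 and Gpx4. They were called in edgeR's quasi-likelihood test with Benjamini-Hochberg adjustment over all 13919 tested genes, at an adjusted p under 0.05. Among all tested genes 6.58% were called, 2.6% lower and 3.98% higher in PFF, against 11.9% of the redox genes, all lower. A log2 fold change (PFF over PBS) below 0 was found for 34 of the 42, or 81.0%, against 50.1% of all tested genes. The median was −0.18 over the 42 genes and 0.00 (−0.00056) over all tested genes. The astrocyte markers stood similarly, with 8 of 10 below 0 and a median of −0.22, and their part in the values of the redox genes was not tested. All 3 PFF libraries lay below all 3 PBS libraries for 12 of the 42 genes, where 11.6% of all tested genes did so, and above them for 1, where 13.4% did so.

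**Figure D1:**
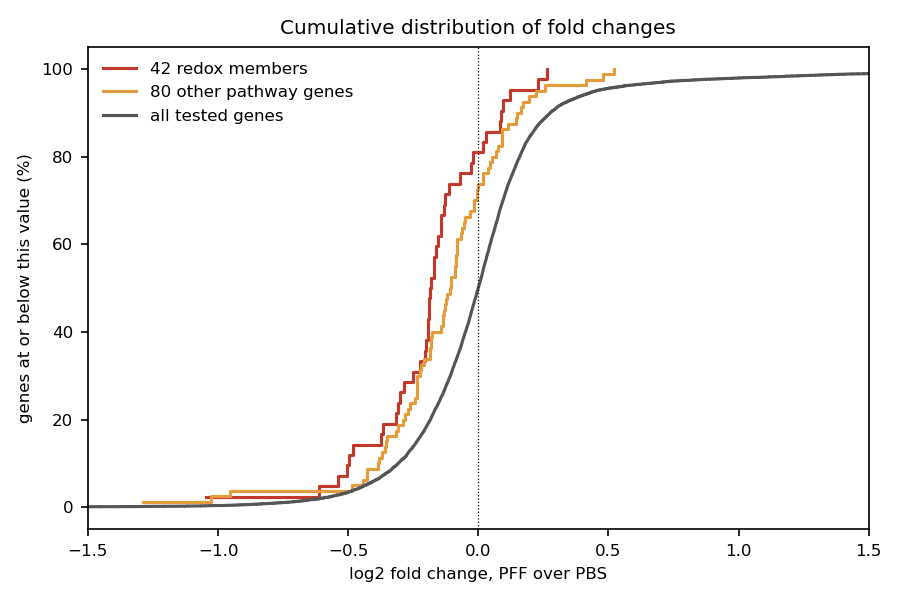
Cumulative share of genes (%) against the log2 fold change of PFF over PBS, for the 42 redox genes, 80 other tested genes of the same pathways and all 13919 tested genes; values beyond ±1.5 are not drawn. The curve of the redox genes crosses 0 at 81.0% and that of all tested genes at 50.1%.

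Sulfiredoxin, encoded by Srxn1, returns overoxidised peroxiredoxins to their active form and is a classical NRF2 target. It had 139, 131 and 139 CPM in PFF libraries 1 to 3, against 205, 195 and 194 CPM in PBS libraries 1 to 3. The groups did not overlap, and the libraries of each group were close together. The log2 fold change was −0.54 ± 0.07 (SE, n = 3 per group here and below; adjusted p = 0.00034 in edgeR's quasi-likelihood test), and the level fell by 31.2% in PFF. Srxn1 passed whichever library was left out, with adjusted p up to 0.00475. The gene lies on chromosome 2 from 152105516 to 152111376, on the plus strand (GENCODE vM21, GRCm38, the assembly also called mm10). It is protein-coding, as are the other 41, and the table gives 1 value per gene, so that exons and transcripts are not resolved.

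Prdx6 encodes a peroxiredoxin that reduces phospholipid hydroperoxides with glutathione as its partner, and is abundant in astrocytes. Its levels were 417, 394 and 524 CPM in PFF, against 702, 572 and 766 CPM in PBS. The highest PFF library, PFF 3, stayed below the lowest PBS library, PBS 2. This gave a log2 fold change of −0.61 ± 0.12 (edgeR's adjusted p = 0.0079). Without PFF 2 the gene no longer passed (adjusted p = 0.0603), and it passed without any other single library. Prdx6 lies on chromosome 1 from 161240112 to 161251219.

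Gsta4, a glutathione transferase for aldehydes formed from oxidised lipids, had 35.2, 33.6 and 46.6 CPM in PFF, against 54.3, 49.0 and 60.3 CPM in PBS. All PFF values were below all PBS values, with PFF 3 again the highest of its group. The log2 fold change was −0.51 ± 0.12 (edgeR's adjusted p = 0.0235). Without PFF 1, PFF 2, PBS 1 or PBS 3 the adjusted p was 0.084, 0.148, 0.0868 and 0.0722. The gene lies on chromosome 9 from 78182774 to 78209349.

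Gpx4 encodes the selenium-dependent peroxidase that reduces lipid hydroperoxides within membranes and protects cells from ferroptosis, a death that follows lipid peroxidation. Its values were 304, 320 and 402 CPM in PFF (319.8 in PFF 2), against 473, 424 and 425 CPM in PBS. Libraries PFF 1 and PFF 2 stood well below the PBS libraries, and PFF 3 lay just under them. The log2 fold change of −0.37 ± 0.10 passed narrowly (edgeR's adjusted p = 0.0469). It passed without PFF 3, but not without PFF 1, PFF 2, PBS 1, PBS 2 or PBS 3 (0.176, 0.236, 0.206, 0.0836 and 0.0634), with scaling by library size only (0.0528), with the stricter low-count filter (0.0585) or without robust estimation (0.0502). Gpx4 lies on chromosome 10 from 80047166 to 80056439, and 51.4% of the 50-base stretches of its coding transcripts also occur in the annotated pseudogene Gpx4-ps2, so its count is uncertain.

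Gpx7, a peroxidase of the endoplasmic reticulum, was the least abundant of the 5 genes. It had 24, 21 and 13 counts in PFF and 38, 33 and 46 counts in PBS, or 2.31, 2.06 and 1.29 CPM in PFF and 4.11, 3.20 and 4.43 CPM in PBS. The groups did not overlap, and here PFF 3 was the lowest library. Its log2 fold change was −1.05 ± 0.26 (edgeR's adjusted p = 0.0267). The call ended without PFF 2, PBS 1 or PBS 3 (0.0834, 0.102 and 0.0806), with replicates 1 and 2 only (0.0964), and the gene was not tested under the stricter filter. Gpx7 lies on chromosome 4 from 108400390 to 108406961.

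**Figure D2:**
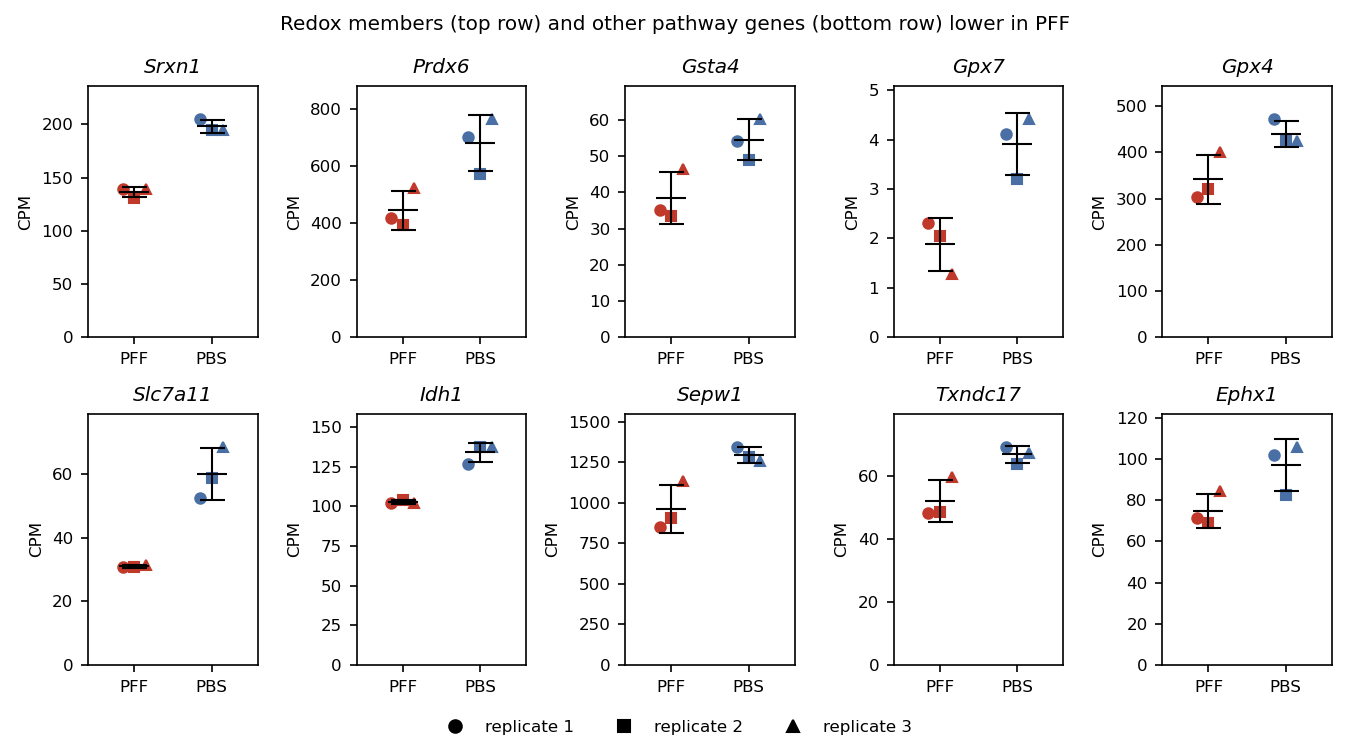
CPM in each library of the 5 redox genes called lower in PFF (top row) and of the 5 other pathway genes called lower (bottom row), PFF left of PBS; symbols mark replicates 1 to 3, and the bars are the mean ± SD (n = 3). The PFF and PBS libraries do not overlap for 9 of the 10 genes, Ephx1 being the exception.

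The number of genes called depended on single libraries, among the redox genes as over all tested genes. It was 3 without PFF 1, 1 without PFF 2 (Srxn1), 12 without PFF 3, 2 without PBS 1, 4 without PBS 2 and 2 without PBS 3, and each of these calls was lower in PFF. Over all tested genes the counts moved in the same directions, to 581 without PFF 1, 412 without PFF 2, 1858 without PFF 3, 511 without PBS 1, 601 without PBS 2 and 744 without PBS 3, against 916 with all libraries. Without PFF 3, 28.6% of the redox genes and 13.2% of all tested genes were called, and without PFF 2, 2.38% of the redox genes and 2.93% of all. PFF 3 was the highest of the 3 PFF libraries for 29 of the 42 genes, or 69.0%, and for 38.7% of all tested genes. Relative to the mean of the PBS libraries, the median gene of the 42 stood at −0.23 in PFF 1, −0.24 in PFF 2 and −0.06 in PFF 3 on the log2 scale, against 0.04 in PBS 1, −0.09 in PBS 2 and 0.03 in PBS 3. Over all tested genes the second principal component, with 18.3% of the variance, also set PFF 3 and PBS 3 apart from the other libraries (−18.0 and −14.5). With replicates 1 and 2 only, 14 redox genes fell and none rose (33.3%), where 2394 of all tested genes were called (17.2%, with 8.38% lower in PFF). The summed astrocyte markers were also highest in PFF 3 among PFF libraries (3606, 3649 and 4606 CPM in PFF 1 to 3) and lowest in PBS 2 among PBS libraries (4413, 3725 and 4856 CPM in PBS 1 to 3). The same held for microglia and macrophage markers (538.8, 547 and 672.6 CPM in PFF, 284.7, 171.8 and 231.3 in PBS). Endothelial, pericyte and fibroblast markers also stood so (39.04, 34.27 and 61.79 CPM in PFF, 53.06, 48.74 and 59.86 in PBS). Mature oligodendrocyte markers were highest in PFF 3 but not lowest in PBS 2, and neuron and progenitor markers were neither. The part of these patterns in the calls was not tested.

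**Figure D3:**
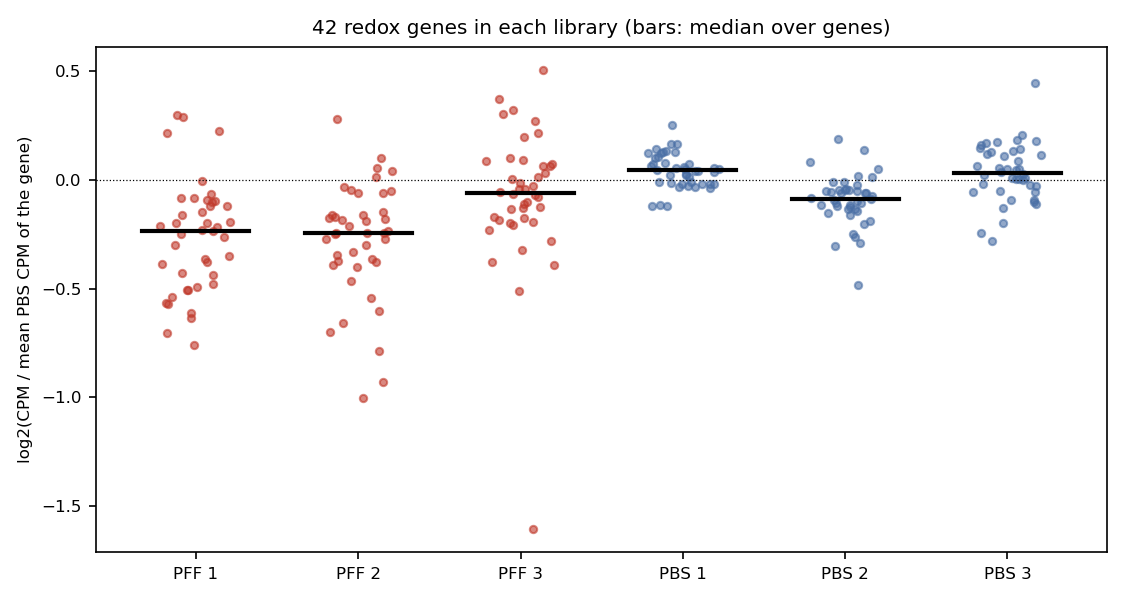
Each of the 42 redox genes in each library, as the log2 ratio of its CPM to its mean CPM in PBS; points are genes, and black bars are medians. The medians of PFF 1 and PFF 2 are −0.23 and −0.24, that of PFF 3 is −0.06, and those of the PBS libraries lie between −0.09 and 0.04.

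Among the 18 glutathione genes 3 fell (Gsta4, Gpx7 and Gpx4), none rose and 15 were not called, with a median log2 fold change of −0.24 and 16 values below 0. Besides the called genes, the peroxidases included Gpx8, a second peroxidase of the endoplasmic reticulum, at −0.38 ± 0.13 (edgeR's adjusted p = 0.104). The secreted peroxidase Gpx3 was at −0.48 ± 0.18 (adjusted p = 0.133), from 36 to 45 counts in PFF and 54 to 57 in PBS. Gpx1, the main cytosolic peroxidase, was at 0.09 ± 0.10. It had 111, 119 and 147 CPM in PFF, against 124, 111 and 119 CPM in PBS, so that only PFF 3 stood above the PBS libraries. Without PFF 3 its value was −0.03.

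Synthesis and recycling of glutathione depend on the glutamate-cysteine ligase subunits Gclc (catalytic) and Gclm (modifier), glutathione synthetase (Gss) and glutathione reductase (Gsr). None of these 4 genes was called, and their log2 fold changes lay between −0.31 and −0.17. Gclm had 50.03, 48.9 and 48.7 CPM in PFF and 57.8, 51.2 and 57.4 CPM in PBS, a change of −0.17 ± 0.08 with a 95% interval from −0.35 to 0.003. Gclc had 81.8, 68.7 and 79.7 CPM in PFF and 95.2, 90.5 and 76.1 CPM in PBS, and the groups overlapped. Gss, at −0.31 ± 0.13, is uncertain because 15.4% of its exonic bases lie within genes on the opposite strand, namely Acss2, Gssos1 and Gssos2. Of its 50-base stretches, 16.3% occur in other genes, most of them in Gssos2 and Gssos1 and fewer in Acss2. The last of these had 394 to 429 counts in PFF and 629 to 642 in PBS (log2 fold change −0.66 ± 0.09, edgeR's adjusted p = 0.00031).

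The transferases conjugate glutathione to reactive compounds. Of the 9 transferase genes, Gsta4 was called lower and the other 8 lay between −0.32 and 0.02. The closest to the threshold was Gstp1, with 90.5, 95.4 and 118 CPM in PFF, against 123, 117 and 138 CPM in PBS (−0.32 ± 0.10, edgeR's adjusted p = 0.0794). Only PFF 3 reached the PBS range, and Gstp1 passed without PFF 3 (0.00261), with replicates 1 and 2 only (0.000637) and without a low-count filter (0.0306). It is also uncertain, since 51.0% of its 50-base stretches occur in the neighbouring Gstp2, which itself had at most 8 counts in any library. Gstm1, a class mu transferase known for its abundance in astrocytes, was the most abundant of the 42 genes per length of transcript, at 549.7 ± 52.9 CPM per kilobase in PFF and 627 ± 71.1 in PBS (SD), and was not called (−0.19 ± 0.10, edgeR's adjusted p = 0.288). Of its 50-base stretches, 19.9% occur in other genes, most of them in Gstm2-ps1 (14.9%). Of the remaining class mu genes, Gstm5 was at −0.29 ± 0.10 and Gstm7 at −0.15 ± 0.16. Gstm5 is uncertain because 13.9% of its exonic bases lie within 4933431E20Rik on the opposite strand. That gene had 820 to 923 counts in PFF and 907 to 999 in PBS. The microsomal transferases Mgst3 and Mgst1 were at −0.19 ± 0.10 and 0.02 ± 0.14, and Gsto1 at −0.16 ± 0.09. Gstt1 had 9 to 19 counts in PFF and 13 to 25 in PBS, and its log2 fold change of −0.30 ± 0.35 had a 95% interval from −1.05 to 0.45.

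**Figure D4:**
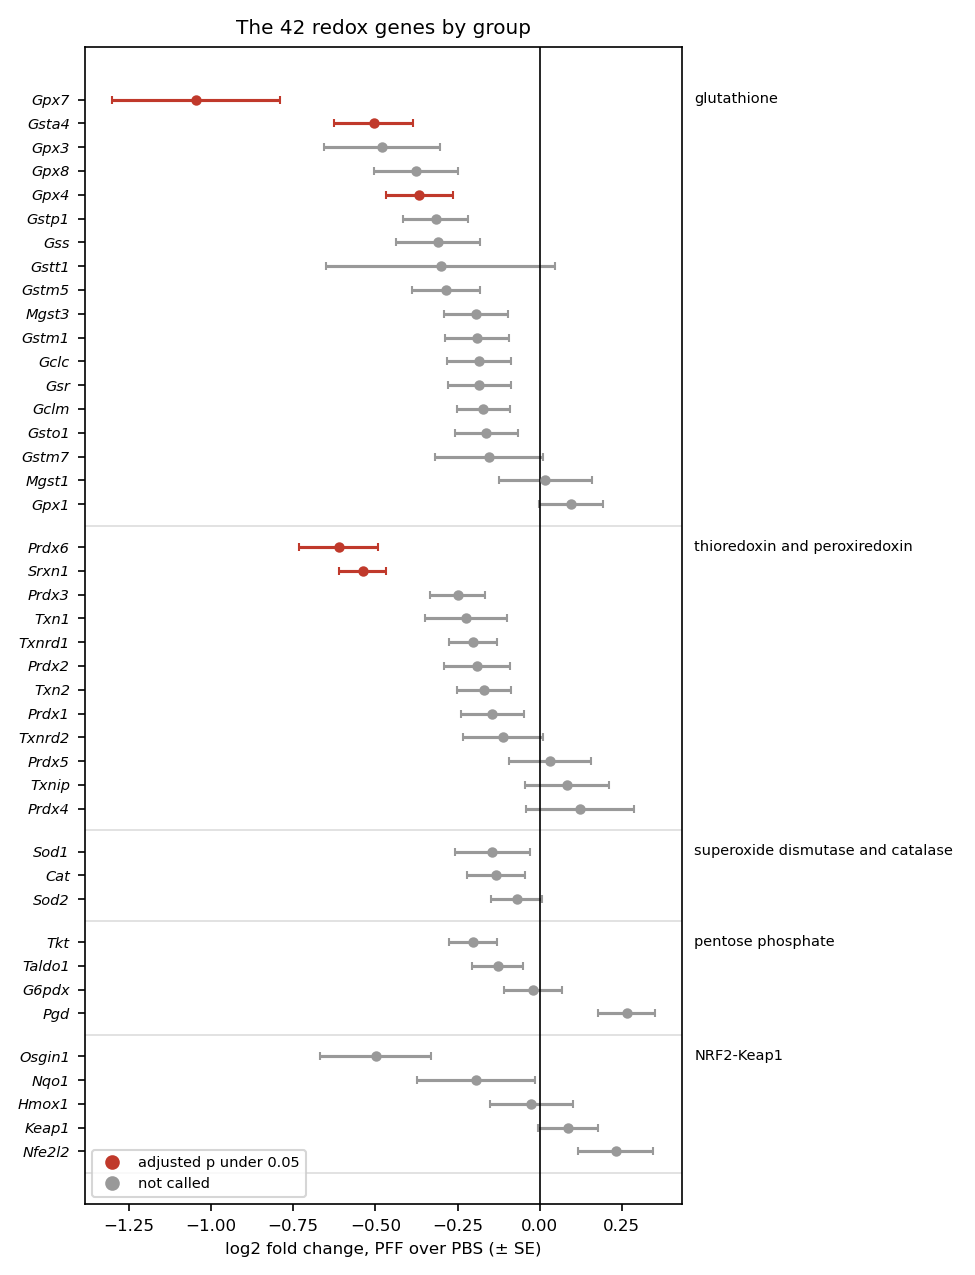
Log2 fold change of PFF over PBS (± SE) for each of the 42 redox genes by group, with the 5 genes called at an adjusted p under 0.05 in red. Values run from −1.05 (Gpx7) to 0.27 (Pgd), and 34 of 42 lie left of 0.

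In the thioredoxin and peroxiredoxin group 2 of 12 genes fell (Srxn1 and Prdx6), none rose and 10 were not called, with a median of −0.18. Thioredoxin reductase of the cytosol, Txnrd1, had 128, 120 and 114 CPM in PFF (119.7 in PFF 2), against 137, 137 and 141 CPM in PBS. The groups did not overlap, and the change of −0.20 ± 0.07 did not pass (edgeR's adjusted p = 0.124). Its mitochondrial counterpart Txnrd2 was at −0.11 ± 0.12. The thioredoxins Txn1 (cytosolic) and Txn2 (mitochondrial) were at −0.23 ± 0.12 and −0.17 ± 0.08, and Txnip, which binds and inhibits thioredoxin, at 0.08 ± 0.13.

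Peroxiredoxins other than Prdx6 were not called. Prdx3, the mitochondrial form, had 57.4, 61.6 and 68.8 CPM in PFF, against 75.7, 71.3 and 76.2 CPM in PBS, without overlap (−0.25 ± 0.08, edgeR's adjusted p = 0.103). The cytosolic forms Prdx1 and Prdx2 were at −0.14 ± 0.10 and −0.19 ± 0.10. Prdx5 (0.03 ± 0.12) and Prdx4 of the endoplasmic reticulum (0.12 ± 0.17) had their highest value in PFF 3, and without that library they were at −0.13 and −0.11. On the opposite strand, other genes cover 11.5% of the exonic bases of Prdx2, 19.1% of those of Prdx5 and 19.4% of those of Txnip, and the sources used here do not give the strand setting of the counting. Among the genes opposite Prdx2 is Junb, which had 253 to 276 counts in PFF and 142 to 183 in PBS (log2 fold change 0.66 ± 0.10, edgeR's adjusted p = 0.0012).

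Grouped by place in the cell, 3 genes of the endoplasmic reticulum (Gpx7, Gpx8 and Prdx4) ran from −1.05 to 0.12, with Gpx7 called. The microsomal transferases Mgst3 (−0.19) and Mgst1 (0.02), neither of them called, were not put in this class. The 4 genes classed here as mitochondrial, Txn2, Txnrd2, Prdx3 and Sod2, ran from −0.25 to −0.07, with none called. Prdx5 (0.03, not called) was left out of this class. Of the 5 selenoprotein genes, Gpx4 was called lower, and Gpx3, Txnrd1, Txnrd2 and Gpx1 were not.

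Superoxide dismutases turn superoxide into hydrogen peroxide, which catalase breaks down. None of the 3 genes was called. Sod1, the cytosolic enzyme, had 177, 202 and 248 CPM in PFF, against 226, 209 and 258 CPM in PBS (−0.14 ± 0.11, edgeR's adjusted p = 0.507). The mitochondrial Sod2 had 148, 159 and 135 CPM in PFF, against 151, 154 and 159 CPM in PBS (−0.07 ± 0.08). Catalase (Cat) had 100.1, 90.4 and 103 CPM in PFF, against 120.2, 98.3 and 103 CPM in PBS (−0.13 ± 0.09). For all 3 genes the groups overlapped, and the 95% intervals of the log2 fold changes reached from −0.39 to 0.10, from −0.24 to 0.10 and from −0.32 to 0.06. Of the 50-base stretches of the coding transcripts of Sod1, 23.1% also occur in the gene model Gm8566.

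The pentose phosphate pathway regenerates NADPH in its oxidative branch, through G6pdx and Pgd, and recycles sugars through Tkt and Taldo1. None of the 4 genes was called, and their values went in both directions. Pgd had 50.03, 49.6 and 47.6 CPM in PFF, against 44.7, 39.5 and 38.4 CPM in PBS, and was the only redox gene with all PFF libraries above all PBS libraries (0.27 ± 0.09, edgeR's adjusted p = 0.0907). Transketolase (Tkt) had 191, 207 and 199 CPM in PFF, against 237, 218 and 233 CPM in PBS, with all PFF libraries below (−0.20 ± 0.07, edgeR's adjusted p = 0.126). Transaldolase (Taldo1) had 89.9, 93.9 and 106 CPM in PFF, against 104, 107 and 106 CPM in PBS (−0.13 ± 0.08). G6pdx, whose enzyme opens the pathway, was at −0.02 ± 0.09, with 50.7, 51.8 and 56.2 CPM in PFF and 59.3, 52.0 and 49.7 CPM in PBS, and the 95% interval ran from −0.21 to 0.17. The count of G6pdx is uncertain, since 13.6% of its exonic bases lie within Ikbkg on the opposite strand. Ikbkg had 413 to 462 counts in PFF and 368 to 477 in PBS. Of the 50-base stretches of G6pdx, 10.5% occur in other genes.

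On the NRF2-Keap1 axis no gene of 5 was called. Nfe2l2 itself had 39.3, 34.3 and 38.6 CPM in PFF, against 38.0, 28.1 and 29.7 CPM in PBS. PBS 1 lay within the PFF range, so the groups overlapped (0.23 ± 0.11, edgeR's adjusted p = 0.264, 95% interval −0.01 to 0.48). Keap1, the adaptor that directs NRF2 to degradation, had 44.7, 46.6 and 51.4 CPM in PFF, against 44.0, 41.9 and 48.5 CPM in PBS (0.09 ± 0.09). Of the exonic bases of Keap1, 10.9% lie within Gm16754 on the opposite strand, and 8.11% of its 50-base stretches occur in that gene.

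The 3 NRF2 targets of this group were not called. Heme oxygenase (Hmox1), which is also induced in macrophages, had 131, 93.5 and 108 CPM in PFF, against 115, 129 and 95.3 CPM in PBS (−0.03 ± 0.13, 95% interval −0.30 to 0.25). The quinone reductase gene Nqo1 had only 40 to 48 counts in PFF and 48 to 50 counts in PBS (4.24, 3.92 and 4.75 CPM in PFF, against 5.41, 4.76 and 4.62 CPM in PBS; −0.19 ± 0.18). Osgin1, an NRF2-responsive gene, had 3.86, 3.92 and 4.35 CPM in PFF, against 5.63, 5.53 and 5.97 CPM in PBS. Its groups did not overlap, at 40 to 44 counts in PFF and 52 to 62 in PBS, but the change of −0.50 ± 0.17 did not pass (edgeR's adjusted p = 0.105).

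Promoter windows were searched because Srxn1, the gene with the smallest p, is an NRF2 target. RefSeq windows (GRCm38.p6) from 250 bases before to 50 bases after the annotated gene start were available for 37 of the 42 genes, and Gclc, Gsr, Gsta4, Hmox1 and Prdx6 had none. The core of the antioxidant response element, TGACNNNGC, was sought on both strands, and TGAGTCAGC, a form bound by NRF2 with small Maf proteins, was added after the Srxn1 window had been read. The first was present for 11 of the 37 genes (29.7%) and for 14% of all 27025 genes with a window. The second was found in Srxn1, which prompted its search and so had to match, and in 2 of the other 36 genes (5.56%), against 129 of 27024 of all genes without Srxn1 (0.477%). The letters TGAGTCA and their reverse complement are also those of an AP-1 site, so a match of the second form, and that in Prdx1, cannot be assigned to one factor. Among the called genes, Srxn1 held 1 match of each, and Gpx4 and Gpx7 held none in these windows. The window of Slc7a11, a called gene outside the 42 that is described below, also held none. Besides Srxn1 and Prdx1, the first motif was in Pgd (log2 fold change 0.27), Nfe2l2 (0.23), Mgst1 (0.02), G6pdx (−0.02) and Sod1 (−0.14). It was also in Gstm7 (−0.15), Gclm (−0.17), Txnrd1 (−0.20) and Gstm5 (−0.29), and none of these genes was called. Any link between the matches and the fold changes was not tested.

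The 3 genes with TGAGTCAGC were Srxn1 (−0.54, called), Osgin1 (−0.50, not called) and Gstp1 (−0.32, not called), and their windows are shown with that of Prdx1 (−0.14, not called), whose match to the first motif has the letters TGACTCAGC. Sequences run 5′ to 3′ on the strand of the gene, and capitals mark matches on either strand, so that a match on the opposite strand shows as its reverse complement. The Srxn1 window is chr2:152105274-152105573 (plus strand), with TGAGTCAGC starting 45 bases before the gene start and a match of the first motif at base 29 after it. Gstp1 is shown over chr19:4037863-4038162 (minus strand), Osgin1 over chr8:119436897-119437196 (plus strand) and Prdx1 over chr4:116685349-116685648 (plus strand).
Srxn1: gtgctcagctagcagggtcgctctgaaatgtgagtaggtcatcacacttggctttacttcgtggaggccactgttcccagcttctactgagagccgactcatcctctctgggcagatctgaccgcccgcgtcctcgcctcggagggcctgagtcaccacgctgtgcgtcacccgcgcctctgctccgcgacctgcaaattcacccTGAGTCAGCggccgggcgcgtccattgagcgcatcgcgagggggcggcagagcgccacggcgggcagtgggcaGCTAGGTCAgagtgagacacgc
Gstp1: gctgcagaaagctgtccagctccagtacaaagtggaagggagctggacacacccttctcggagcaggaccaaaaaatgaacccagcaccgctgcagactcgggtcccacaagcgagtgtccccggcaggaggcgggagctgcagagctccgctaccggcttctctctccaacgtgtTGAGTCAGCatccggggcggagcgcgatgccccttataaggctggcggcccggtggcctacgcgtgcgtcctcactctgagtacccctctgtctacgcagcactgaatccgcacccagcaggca
Osgin1: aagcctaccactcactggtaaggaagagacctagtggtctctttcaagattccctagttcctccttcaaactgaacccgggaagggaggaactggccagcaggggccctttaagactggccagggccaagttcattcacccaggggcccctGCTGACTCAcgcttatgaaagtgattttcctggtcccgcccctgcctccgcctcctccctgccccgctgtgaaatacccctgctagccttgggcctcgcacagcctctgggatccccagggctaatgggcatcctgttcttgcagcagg
Prdx1: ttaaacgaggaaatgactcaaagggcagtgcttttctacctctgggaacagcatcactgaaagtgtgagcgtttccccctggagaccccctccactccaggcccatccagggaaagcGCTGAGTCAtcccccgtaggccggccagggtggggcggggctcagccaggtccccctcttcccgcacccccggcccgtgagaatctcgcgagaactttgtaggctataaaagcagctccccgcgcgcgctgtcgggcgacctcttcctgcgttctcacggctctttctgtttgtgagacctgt

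Levels between genes were compared as CPM per kilobase of the longest coding transcript. After Gstm1 came Gpx4, at 343 ± 52.8 in PFF and 443 ± 28.05 in PBS (SD), and Sod1, at 326 ± 56.2 in PFF and 360.3 ± 38.7 in PBS. The spreads of Gpx4 and Sod1 overlapped in PFF and did not overlap in PBS. Prdx6 followed, at 186 ± 29.0 in PFF and 285 ± 41.4 in PBS, and Prdx2 at 184 ± 25.0 in PFF and 209.6 ± 17.7 in PBS. In PFF the levels of Prdx6 and Prdx2 did not differ beyond their spread, and in PBS neither did those of Sod1 and Prdx6. Srxn1 stood at 48.5 ± 1.75 in PFF and 70.5 ± 2.18 in PBS, and Nfe2l2 at 15.1 ± 1.10 in PFF and 12.9 ± 2.15 in PBS. At the low end were Nqo1 (2.77 ± 0.269 in PFF and 3.18 ± 0.274 in PBS), Gpx7 (1.46 ± 0.415 in PFF and 3.04 ± 0.493 in PBS), Osgin1 (2.02 ± 0.135 in PFF and 2.85 ± 0.113 in PBS) and Gstt1 (1.30 ± 0.459 in PFF and 1.597 ± 0.529 in PBS).

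Other genes of the same pathways were read from the same fit, from lists of 91 genes, of which 90 were in the table and 80 were tested. Of these 5 fell, none rose and 75 were not called, and the median log2 fold change was −0.11. The share called was 6.25%, close to the 6.58% of all tested genes, among which 2.6% were called lower in PFF. The count was 3 without PFF 1, 2 without PFF 2, 18 without PFF 3 (1 of them higher in PFF), 2 without PBS 1, 4 without PBS 2 and 3 without PBS 3. Slc7a11, the cystine carrier that feeds glutathione synthesis, fell to 30.7, 30.7 and 31.4 CPM in PFF, against 52.4, 58.8 and 68.6 CPM in PBS (−0.96 ± 0.10, edgeR's adjusted p = 7.53e-05). It was the only one called of 24 other glutathione genes, while Slc3a2, which encodes the partner chain of the carrier, was at −0.13 ± 0.09. The nearest to the threshold among the rest were Gstz1 (−0.29 ± 0.09), Gsta3 (−1.29 ± 0.40, at 4 to 13 counts in PFF and 14 to 22 in PBS) and Esd (−0.22 ± 0.08).

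Idh1, the cytosolic isocitrate dehydrogenase and another source of NADPH, had 102, 104 and 102 CPM in PFF, against 127, 137 and 138 CPM in PBS. The groups did not overlap (−0.38 ± 0.07, edgeR's adjusted p = 0.00469), and the call held whichever library was left out (adjusted p up to 0.0283). It was the 1 gene called of 15 other pentose phosphate and NADPH genes. Malic enzyme Me1 (−0.28 ± 0.08, edgeR's adjusted p = 0.0558), the endoplasmic reticulum enzyme H6pd (0.52 ± 0.16, adjusted p = 0.0721) and mitochondrial Idh2 (−0.32 ± 0.10, adjusted p = 0.0916) came next.

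Of 18 other thioredoxin and antioxidant repair genes, 2 fell. The selenoprotein W gene, listed as Sepw1, had 851, 903 and 1131 CPM in PFF, against 1346, 1283 and 1254 CPM in PBS (−0.43 ± 0.10, edgeR's adjusted p = 0.0241). The thioredoxin-like Txndc17 had 48.1, 48.4 and 59.7 CPM in PFF, against 69.3, 63.9 and 67.2 CPM in PBS (−0.36 ± 0.09, edgeR's adjusted p = 0.0356). In both genes PFF 3 was the highest PFF library, below every PBS library. Neither passed without PFF 1, PFF 2, PBS 1 or PBS 2 (adjusted p from 0.0611 to 0.199), nor Txndc17 without PBS 3 (0.068). Sesn2 (−0.27 ± 0.09), the selenoprotein P gene Sepp1 (0.22 ± 0.08) and Nxn (−0.24 ± 0.14) were not called.

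Among 23 further NRF2 regulators and targets, the epoxide hydrolase gene Ephx1 fell, with 71.2, 69.0 and 84.4 CPM in PFF, against 102, 82.6 and 106 CPM in PBS. PFF 3 lay above PBS 2, so the groups overlapped, and the call was narrow (−0.37 ± 0.10, edgeR's adjusted p = 0.0489). It did not pass without PFF 1, PFF 2, PBS 1 or PBS 3 (0.148, 0.249, 0.203 and 0.137), in limma-voom (0.0559), with scaling by library size only (0.0636), with the stricter low-count filter (0.0616) or without robust estimation (0.0512). Sqstm1, whose protein p62 binds Keap1, stood in the other direction, with 359.8, 376 and 378 CPM in PFF, against 299, 317 and 317 CPM in PBS (0.26 ± 0.07, edgeR's adjusted p = 0.0516). It passed in DESeq2 (0.0304), in limma-voom (0.0467) and with scaling by library size only (0.0239). Akr1b10 (−0.44 ± 0.13) and Slc48a1 (−0.24 ± 0.08) were not called. The repressor Bach1 was at −0.12 ± 0.09, and the small Maf genes Mafg, Maff and Mafk were between −0.09 and 0.02.

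**Figure D5:**
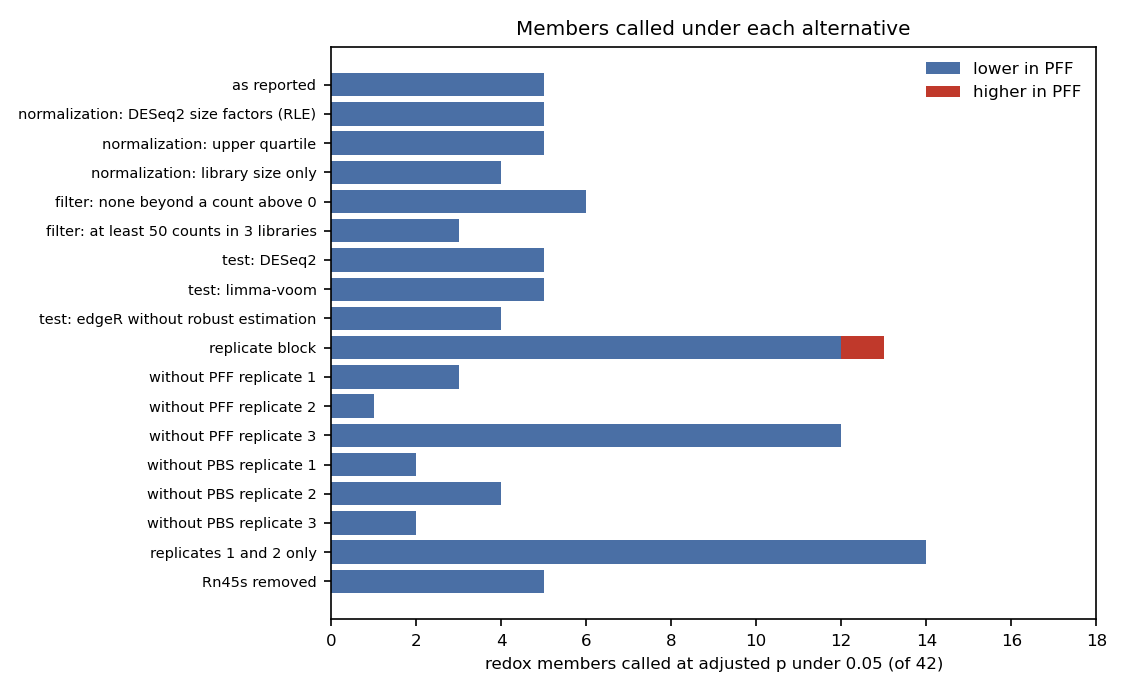
Number of the 42 redox genes called at an adjusted p under 0.05 in the reported test and under each alternative, split by direction. The count is 5 as reported and runs from 1 without PFF 2 to 14 with replicates 1 and 2 only; 1 gene, Pgd, is called higher in PFF, with the replicate number as a block.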

How the data were processed

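The labels' protocols name a directional library kit for the total RNA of the 6 samples. The authors deposited unscaled estimated counts per gene, of which 8.69% were not whole. The submitters' processing notes list Trim Galore 0.6.6, STAR 2.7.9a, DESeq2 1.38.3 and the mm10 build, and the series' design text names RNAseqChef. Which tool counted the reads, with what strand setting and annotation, is not given in the sources used here. Counts of overlapping or near-identical genes may therefore have been shared.

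Columns were matched to samples by name. Counts were rounded and analysed in R 4.3.3 with edgeR 4.0.16. Of 24411 genes, 13919 passed filterByExpr on the group. They were TMM-normalised and compared by a two-sided quasi-likelihood test with robust estimation, whose model held the group alone, and p-values were adjusted over all 13919 by the Benjamini-Hochberg method. The common dispersion was 0.00642. The SE of a log2 fold change is its size over the square root of F, and its 95% interval uses the fit's degrees of freedom. Coordinates, transcript lengths, exon overlaps and shared 50-base stretches came from GENCODE vM21, and promoters from RefSeq. The steps were tested on simulated data.

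Full values are given for each called gene, the 3 genes with the smallest p in each group of redox genes, and Nfe2l2, Keap1, Hmox1 and Nqo1. Of each list of other pathway genes, the called genes and the next 3 by p were named. Further values were picked after they had been seen. The members and lists were chosen with earlier results of these data known, and the classes by place in the cell after the values were seen. Alternatives were other normalisations, filters, tests (DESeq2 1.42.0, limma-voom 3.58.1) and thresholds, a block on the replicate number, removal of Rn45s, replicates 1 and 2 only, and leaving out each library.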

Additional observations from a re-analysis of the deposited data

How the results depend on the processing

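Of the 42 redox genes, 5 were called as reported, and the same 5 in DESeq2, in limma-voom, with DESeq2 size factors, with upper-quartile scaling and without Rn45s. The count was 3 of 39 tested with at least 50 counts in 3 libraries, and 6 without a filter. It was 4 with scaling by library size only and 4 without robust estimation. It was 14 with replicates 1 and 2 only, 2 at an adjusted p under 0.01 and 7 at 0.1 (1 of them higher in PFF). With 1 library left out it was between 1 and 12. Among the other pathway genes it was 5 of 80 as reported and 9 of 90 without a filter. It was 19 with replicates 1 and 2 only, 2 at 0.01, 14 at 0.1, and between 2 and 18 with 1 library left out. Over all tested genes it was 916 as reported and 1132 of 18964 (5.97%) without a filter. It was 2394 with replicates 1 and 2 only, 414 at 0.01, 1391 at 0.1, and between 412 and 1858 with 1 library left out. The causes were not tested. Same-numbered libraries deviated together with correlations of 0.09, 0.11 and 0.20. Different-numbered pairs ran from −0.21 (PFF 1 with PBS 3) to 0.13 (PFF 1 with PBS 2). Within groups, the chi-square of the counts per degree of freedom was 2.80 in PBS and 3.00 in PFF between replicates 1 and 2. For pairs with replicate 3 it lay between 7.58 and 9.69. The labels do not say that the numbers pair the samples, so the reported fit has no block. Whether same-numbered libraries share an effect was not tested. With the replicate number as a block, 13 redox genes were called, with Gpx8, Gstm5, Gstp1, Prdx3, Tkt, Txn1 and Txnrd1 lower in PFF and Pgd higher besides the 5 as reported. With that block, 21 other pathway genes (26.2%) and 1997 of all tested genes (14.3%) were called, where the share of the redox genes was 31%. Called lower in PFF were 28.6% of the redox genes, 22.5% of the other pathway genes and 6.85% of all tested genes. Sign reversals were found only in redox genes that were not called: Hmox1 (0.0037 with library size only), Mgst1 (−0.0061 in limma-voom), G6pdx (0.0078 with library size only) and, with replicates 1 and 2 only, Gpx1 (−0.021), Mgst1 (−0.13), Sod2 (0.018), Prdx4 (−0.059) and Prdx5 (−0.0077). With 1 library left out the log2 fold change ran from −0.17 to 0.082 for Hmox1, −0.032 to 0.17 for Gpx1, −0.20 to 0.13 for Mgst1, −0.073 to 0.054 for G6pdx, −0.11 to 0.26 for Prdx4, −0.053 to 0.16 for Txnip and −0.13 to 0.15 for Prdx5. At this depth genes with few counts, such as Gstt1, Gpx7 and Nqo1, have wide intervals, and intervals cover the spread between these libraries only.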
